A study of Homo sapiens with 38 samples.

Results

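The transcripts described here are those of 10 genes, which were chosen by name. They comprise the 4 Fos subunits of the transcription factor AP-1 (FOS, FOSB, FOSL1 and FOSL2), its 3 Jun subunits (JUN, JUNB and JUND), the zinc-finger factor EGR1, the short nuclear protein IER2 and the phosphatase DUSP1. All 10 had a row in the count tables, which together named 52360 genes (50652 for the BE2C libraries and 50778 for the palbociclib libraries).

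AP-1 is a dimer of leucine-zipper proteins. Jun proteins can pair with each other or with Fos proteins, whereas Fos proteins need a Jun partner to bind DNA. Most of these genes are immediate early genes, transcribed within minutes of growth factor, stress or calcium signalling without new protein synthesis, from promoters read by CREB and by the serum response factor with its ETS partners, and their mRNAs are short-lived. DUSP1 removes phosphate from the mitogen-activated protein kinases (MAPK) that switch the family on, and so acts as its feedback brake. In neuroblastoma, a childhood tumour of the sympathetic nervous system, cell lines lie between an adrenergic, neuron-like state and a mesenchymal state, and Fos-related and Jun factors are known for high levels in the latter.

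RNA-seq counts came from 38 files of 5 human neuroblastoma cell lines, which made 27 libraries in 13 groups. BE2C, a MYCN-amplified line, was transfected for 72 h with a control siRNA (siCtrl, 2 libraries) or with 1 of 3 siRNAs against KDM6B, the H3K27me3 demethylase also known as JMJD3 (siKDM6B N1, N2 and N33, 1 library each). In a separate BE2C experiment, 2.5 μM GSK-J4, which inhibits KDM6-type demethylases, was given for 0, 24 or 48 h (2 libraries each). CHLA15 and CHLA20 received 0.3 μM and NB1643 and NB1691 received 3 μM palbociclib, a CDK4/6 inhibitor, for 72 h, each with untreated controls (2 libraries per group). All lines grew in medium with serum. GSK-J4 had no untreated libraries at 24 or 48 h, so its effect and that of time in culture cannot be told apart, and the dose of palbociclib differed between the CHLA and NB lines. Nothing in the labels said that the libraries of a group came from separate cultures, so p-values measure the spread between these libraries only.

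Each library held between 36186567 and 93011010 counts in genes, and 3 counts, the floor used here, came to at most 0.0829 CPM (counts per 1000000 gene counts). KDM6B itself did not check the siRNA labels: the siCtrl libraries held 6.47 and 8.76 CPM, and those labelled siKDM6B N1, N2 and N33 held 8.98, 7.11 and 8.25 CPM (log2 fold change 0.09, edgeR adjusted p = 0.945). The siKDM6B libraries also differed among themselves, with 11 adrenergic markers summing to 5357, 4155 and 1495 CPM in N1, N2 and N33 against 4283 and 4427 CPM in siCtrl. The 11 mesenchymal or fibroblast markers summed to 879.4, 723.8 and 393.7 CPM against 710.2 and 714.0 CPM, so N33 was lowest for both lists. BE2C, CHLA15, CHLA20 and NB1643 carried the adrenergic markers. In their controls 7 to 9 of the 11 mesenchymal or fibroblast markers also averaged 1 CPM or more, with YAP1 at no more than 1.12 CPM. Untreated NB1691 stood apart from them. Its 11 adrenergic markers summed to 760.4 and 841.2 CPM (3007 to 7172 CPM in the other lines without a drug). Its 11 mesenchymal or fibroblast markers summed to 80990 and 81210 CPM (505.6 to 1829 CPM elsewhere). MYCN was at 86.3 CPM in NB1691 and is compared here only with NB1643, at 3174 CPM. All 11 mesenchymal markers averaged 1 CPM or more in NB1691. SOX10, 1 of 5 Schwann cell markers, was at 0 in its controls, but 2 of the 5 averaged 1 CPM or more. The Schwann cell markers summed to 15.12 and 15.45 CPM in these controls (1.855 to 5.211 CPM in the other lines without a drug). Of 4 endothelial markers, 3 averaged 1 CPM or more, and the list summed to 10.09 and 11.01 CPM (at most 2.142 CPM elsewhere). Of 5 leukocyte markers, 1, LYZ, passed 1 CPM. The markers of these libraries thus went against those of the other neuroblastoma lines. The files here do not settle their identity, and NB1691 below names the libraries by their label. The part of this marker difference in any result on NB1691 was not tested.

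The upstream sequences of FOS, FOSB and EGR1 are shown because these 3 genes had the largest fold changes of the family under GSK-J4. Each run holds the 250 bases before the annotated start on the gene's own strand, from the RefSeq promoter table (build GRCh38.p14), which held 9 of the 10 genes; each window had a single exact match on its chromosome in GRCh37, the build of the count files, and the GRCh37 position is given. Capitals mark TGACGT (the core of the cAMP response element) on either strand, TATAAA (the box of the core promoter) and the CArG box, the recognition sequence of the serum response factor.
FOS, chr14:75745281-75745530, plus strand: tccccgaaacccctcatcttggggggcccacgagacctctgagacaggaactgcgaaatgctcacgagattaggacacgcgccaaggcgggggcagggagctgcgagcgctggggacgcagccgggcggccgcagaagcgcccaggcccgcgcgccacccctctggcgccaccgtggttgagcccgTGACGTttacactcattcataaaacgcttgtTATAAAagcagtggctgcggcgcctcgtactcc
FOSB, chr19:45971004-45971253, plus strand: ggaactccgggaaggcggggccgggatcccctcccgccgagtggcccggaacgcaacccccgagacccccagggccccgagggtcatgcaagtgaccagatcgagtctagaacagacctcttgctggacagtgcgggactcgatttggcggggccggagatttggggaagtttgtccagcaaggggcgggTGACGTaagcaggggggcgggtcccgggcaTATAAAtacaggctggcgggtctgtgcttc
EGR1, chr5:137800918-137801167, plus strand: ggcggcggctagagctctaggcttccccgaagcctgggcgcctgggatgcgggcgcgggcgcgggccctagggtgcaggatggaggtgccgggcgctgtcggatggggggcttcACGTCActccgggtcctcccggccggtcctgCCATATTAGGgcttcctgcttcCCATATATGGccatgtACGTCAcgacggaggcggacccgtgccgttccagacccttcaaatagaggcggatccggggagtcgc

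TGACGT lay 64 to 59 bases before the start of FOS, 60 to 55 before FOSB and 67 to 62 before EGR1, where it was read on the opposite strand. EGR1 held a further copy at 136 to 131 bases and 2 CArG boxes at 105 to 96 and 83 to 74 bases. FOSL2 held TGACGT as well, at 66 to 61 bases, and so did JUND and DUSP1, each of which also held the full element TGACGTCA, with which TGACGT overlaps. TGACGT was thus in 6 of the 9 windows, against 7.42% of all 27305 windows of this length. TGACGTCA was in 2 (1.77% of all windows), TATAAA in 4 (11.1%), the CArG box in 1 (1.14%) and GGGCGG, the GC box, in 7 (42.3%). Neither TGANTCA, the AP-1 site (6.6% of all windows), nor GCGTGGGCG, an EGR site (0.71%), was in any of the 9 windows. All motifs were searched on both strands of these 250 bases only, so an element further upstream would not be seen. A match is a description of these letters only.

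The GSK-J4 experiment asked how BE2C transcripts differed after 24 and 48 h with the KDM6 inhibitor. FOS, FOSB and EGR1 were the members furthest from their 0 h level at both times, FOSL2, JUN and DUSP1 rose less, and JUNB and JUND by no more than 0.33 on the log2 scale. IER2 fell. FOSL1 stayed at the edge of detection. Values are CPM scaled by the trimmed mean of M values (TMM), each fold change is against 0 h unless stated, and ± gives the standard error of the log2 fold change.

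FOS, the founding Fos subunit, stood at 0.80 and 0.62 CPM (29 and 22 counts) at 0 h, 4.15 and 4.68 CPM at 24 h and 12.9 and 11.9 CPM at 48 h. No library of a later time overlapped one of an earlier time. The log2 fold change was 2.63 ± 0.19 at 24 h (adjusted p = 1.16e-16) and 4.13 ± 0.15 at 48 h (adjusted p = 8.41e-28), which is 17.5-fold. FOS also rose between 24 and 48 h, by 1.495 ± 0.096 (adjusted p = 5.15e-18).

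FOSB, which pairs with Jun proteins as FOS does, had 3 and 7 counts at 0 h (0.083 and 0.20 CPM), so that its starting level was known only roughly. It reached 1.18 and 1.06 CPM at 24 h and 2.35 and 2.23 CPM at 48 h. Those levels gave log2 fold changes of 2.99 ± 0.40 (adjusted p = 1.14e-08) and 4.01 ± 0.34 (adjusted p = 1.39e-14). ERCC1, a DNA repair gene annotated on the other strand over part of FOSB, fell by 0.28 at 48 h (adjusted p = 8.68e-08).

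FOSL2 (FRA-2), the most abundant Fos subunit in BE2C per length of transcript, was at 44.1 and 46.2 CPM at 0 h, 75.9 and 81.0 CPM at 24 h, and 111.3 and 108.6 CPM at 48 h. The groups were again separate at each step, with log2 fold changes of 0.80 ± 0.04 (adjusted p = 1.87e-21) and 1.29 ± 0.04 (adjusted p = 1.25e-30). FOSL1 (FRA-1) had no count in the 4 libraries at 0 and 24 h, and 1 and 5 counts at 48 h. With at most 0.10 CPM in any of these libraries it did not pass the filter on low counts, and a change was not detectable at this depth.

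Among the Jun subunits JUN, the strongest transactivator, rose from 28.6 and 29.1 CPM at 0 h to 42.9 and 43.6 CPM at 24 h and was 47.8 and 43.96 CPM at 48 h. The log2 fold changes were 0.59 ± 0.05 (adjusted p = 7.83e-14) and 0.67 ± 0.05 (adjusted p = 1.27e-16), and the step from 24 to 48 h did not pass the test (adjusted p = 0.0923), though it did with upper quartiles or library totals as the scaling. JUNB, which often restrains JUN, was at 21.2 and 17.8 CPM at 0 h, 21.6 and 22.7 CPM at 24 h, and 24.0 and 25.1 CPM at 48 h. Its change at 24 h (log2 fold change 0.18, adjusted p = 0.0171) was 0.06 without the second library at 0 h (adjusted p = 0.518) and 0.15 without the second library at 24 h (adjusted p = 0.109). At 48 h it was 0.33 ± 0.06 (adjusted p = 1.01e-05). JUND, the subunit that resting cells keep, went from 27.8 and 27.7 CPM to 31.2 and 31.8 CPM at 24 h and 31.3 and 31.0 CPM at 48 h, a log2 fold change of 0.17 at 48 h (adjusted p = 0.0031; DESeq2 adjusted p = 0.0635). HOOK2, annotated on the other strand over part of JUNB, rose by 0.42 at 48 h (adjusted p = 8.32e-05).

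EGR1, a zinc-finger activator induced alongside FOS, was at 1.24 and 1.35 CPM at 0 h, 3.50 and 3.42 CPM at 24 h and 7.34 and 7.77 CPM at 48 h. All 3 groups were separate. The log2 fold change was 1.42 ± 0.17 (adjusted p = 7.84e-10) at 24 h and 2.54 ± 0.14 (adjusted p = 1.46e-20) at 48 h. IER2 went the other way, from 32.6 and 33.7 CPM at 0 h to 30.1 and 29.8 CPM at 24 h and 28.5 and 26.9 CPM at 48 h. It fell by 0.25 ± 0.05 on the log2 scale at 48 h (adjusted p = 2.59e-05); at 24 h the decrease of 0.15 (adjusted p = 0.0143) failed the test without the second library at 0 h (adjusted p = 0.117) or the second at 24 h (adjusted p = 0.0704). DUSP1, the MAPK phosphatase, rose from 14.2 and 15.1 CPM to 17.7 and 18.7 CPM and then to 24.1 and 23.4 CPM. Its log2 fold changes were 0.31 ± 0.07 (adjusted p = 0.000106) and 0.70 ± 0.06 (adjusted p = 1.33e-13).

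**Figure D1:**
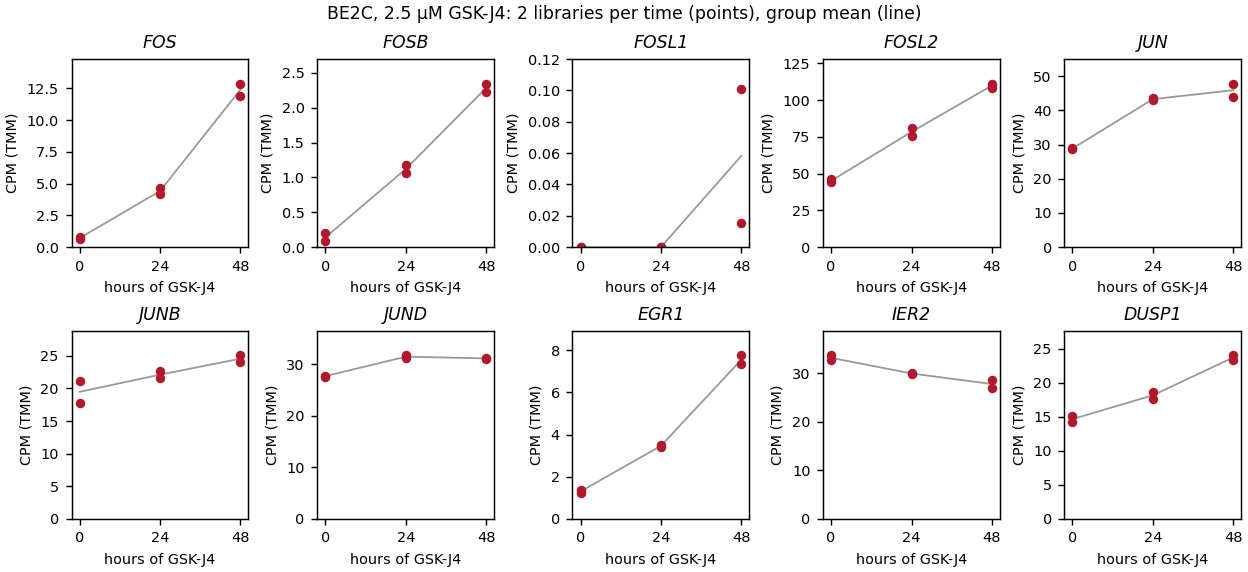
Level of each of the 10 transcripts (vertical axis, TMM-scaled CPM from 0) in BE2C by hours of 2.5 μM GSK-J4 (horizontal axis), with 1 point per library and a line through the group means. FOS climbs from under 1 CPM to 11.9 and 12.9 CPM, FOSB and EGR1 climb at both steps, JUN and JUND level off after 24 h, and IER2 declines.

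Of the 9 members tested, 8 rose and 1 fell at 24 h and again at 48 h, against 55.3% and 71.5% of all tested genes called in either direction. Between 48 and 24 h 6 rose and none fell (53.9% of all genes called). At an unadjusted edgeR p under 0.05 there were 7 of 9 members, the added gene being IER2, beside 10286 of all 17734 tested genes. The median log2 fold change over the 9 was 0.59 at 24 h and 0.70 at 48 h, beside 0.01 and 0.05 over all tested genes. With the share of all genes this high, the count says little about the members. The GSK-J4 libraries had a common coefficient of variation of 0.0219. When they were fitted together with the siRNA libraries, whose spread was 0.35, FOS alone was called at 24 h (1 of 9), and FOS, FOSB, EGR1 and DUSP1 (4 of 9) at 48 h, and none at 48 h against 24 h.

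The siRNA comparison asked about the same transcripts in BE2C cells transfected against KDM6B. None of the 9 tested members was called, and neither was any of the 17472 genes (0% by edgeR; 1615 genes at an unadjusted p under 0.05, 1 member among them; 157 genes by DESeq2 after adjustment). The median over the 9 was 0.18, beside 0.04 over all genes. FOSB was the member furthest from siCtrl, with 9 and 11 counts (0.22 and 0.23 CPM) in the siCtrl libraries and 123, 31 and 46 counts (2.91, 0.61 and 0.99 CPM) in N1, N2 and N33. All 3 siKDM6B libraries lay above both controls, but N1 lay far above the other two. The log2 fold change of 2.69 (95% interval 0.76 to 4.62) had an adjusted p of 0.522, and it was 1.79 without N1 (adjusted p = 0.329). With each deposited file taken as a sample of its own, FOSB was the 1 member called (edgeR adjusted p = 0.0161), along with 2354 genes in all. The 2 files of a library are not independent samples, so that setting overstates the evidence.

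FOS read 3.76 and 4.998 CPM in siCtrl, and 7.78, 4.79 and 3.24 CPM in N1, N2 and N33, so the groups overlapped. Its log2 fold change was 0.27 (95% interval -0.80 to 1.33, adjusted p = 0.882) and -0.12 without N1. EGR1 read 6.32 and 7.62 CPM in the controls, and 9.57, 6.69 and 13.5 CPM in N1, N2 and N33, of which N2 lay between the controls (log2 fold change 0.51, interval -0.39 to 1.41, adjusted p = 0.704). FOSL2 read 37.2 and 40.8 CPM in the controls, 50.6 CPM in N1, and 20.8 and 16.5 CPM in N2 and N33. JUN read 40.4 and 42.2 CPM in the controls, 44.1 and 54.0 CPM in N1 and N2, and 15.1 CPM in N33. The 3 siRNAs thus lay on both sides of the control for FOS, FOSL2 and JUN. JUNB was between 17.4 and 37.5 CPM over the 5 libraries, JUND between 19.6 and 36.6 CPM and IER2 between 21.6 and 51.0 CPM. DUSP1 read 17.3 and 16.3 CPM in the controls, and 24.5, 20.7 and 19.7 CPM in N1, N2 and N33, each above both controls. FOSL1 had no count in siCtrl and 3, 2 and 1 counts in N1, N2 and N33, at or under the floor.

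**Figure D2:**
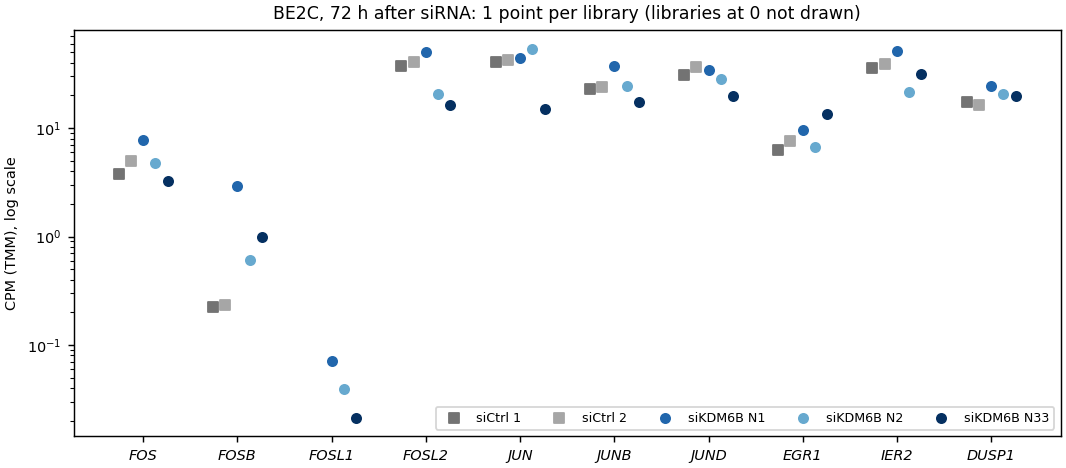
Level of each transcript (vertical axis, TMM-scaled CPM on a log scale) in the 2 siCtrl libraries (squares) and the siKDM6B N1, N2 and N33 libraries (circles) of BE2C; libraries at 0 are not drawn. FOSB is higher in the 3 siKDM6B libraries than in both controls, and the N33 library is the lowest of the 5 for FOSL2, JUN, JUNB and JUND.

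The starting levels of the 2 BE2C experiments are given side by side. FOS averaged 4.38 ± 0.88 CPM (SD, n = 2) in siCtrl and 0.71 ± 0.13 CPM at 0 h of GSK-J4, and EGR1 averaged 6.97 ± 0.92 and 1.30 ± 0.08 CPM. JUN averaged 41.3 ± 1.3 and 28.9 ± 0.3 CPM, JUND 33.7 ± 4.1 and 27.7 ± 0.1 CPM, and FOSB 0.23 ± 0.01 and 0.14 ± 0.08 CPM. FOSL2 (39.0 ± 2.6 and 45.1 ± 1.5 CPM), JUNB (23.4 ± 0.8 and 19.5 ± 2.4 CPM), IER2 (37.3 ± 2.4 and 33.1 ± 0.8 CPM) and DUSP1 (16.8 ± 0.7 and 14.7 ± 0.6 CPM) were less far apart than FOS and EGR1. These libraries were made in different experiments with and without transfection, and the effects cannot be told apart, so no test is given.

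The palbociclib experiment asked how 4 lines differed from their own controls after CDK4/6 inhibition. FOS and EGR1 rose in CHLA15 and CHLA20 and did not pass the test in NB1643 or NB1691. FOSL2 rose in NB1643 and in no other line. JUNB and DUSP1 rose in CHLA15, CHLA20 and NB1643, and FOSL1 fell in NB1643 and NB1691. FOSB and IER2 were called in no line.

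FOS was at 0.25 and 0.21 CPM (19 and 12 counts) in CHLA15 controls and at 0.94 and 1.04 CPM with palbociclib, a log2 fold change of 2.08 ± 0.25 (adjusted p = 4.66e-06). In CHLA20 it was at 0.43 and 0.35 CPM in controls and at 0.87 and 0.83 CPM with the drug (1.10 ± 0.24, adjusted p = 0.00155). In both lines every treated library lay above both controls. NB1643 had 1.23 and 1.11 CPM in controls and 1.37 and 1.21 CPM with palbociclib, and NB1691 had 0.69 and 0.75 CPM in controls and 0.73 and 0.88 CPM with it. Treated and control libraries of both NB lines overlapped (adjusted p = 0.639 and 0.651).

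EGR1 showed the same split between lines. CHLA15 controls had 1.44 and 1.03 CPM and treated libraries 4.05 and 5.91 CPM (log2 fold change 1.99 ± 0.19, adjusted p = 2.21e-07), and CHLA20 controls 1.58 and 1.09 CPM and treated libraries 6.33 and 6.92 CPM (2.30 ± 0.18, adjusted p = 2.28e-08). In NB1643 the controls were at 4.76 and 4.26 CPM and the treated libraries at 4.29 and 4.63 CPM, and in NB1691 they were at 10.8 and 10.9 CPM against 10.4 and 9.62 CPM, both treated libraries lying just below the controls. The adjusted p was 0.972 in NB1643 and 0.568 in NB1691, with 95% intervals of the log2 fold change of -0.36 to 0.31 and -0.41 to 0.17. DUSP1 rose from 11.6 and 13.0 CPM to 20.8 and 19.97 CPM in CHLA15 (0.73 ± 0.09, adjusted p = 4.07e-06), from 11.8 and 14.5 CPM to 19.4 CPM in both libraries in CHLA20 (0.56 ± 0.09, adjusted p = 6.64e-05) and from 13.6 and 14.2 CPM to 17.98 and 16.6 CPM in NB1643 (0.31 ± 0.09, adjusted p = 0.0079; 0.26 with adjusted p = 0.0978 without the first treated library). In NB1691 it was at 74.5 and 66.6 CPM in controls and at 79.8 and 79.0 CPM with the drug (adjusted p = 0.0995).

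FOSL2 in NB1643 went from 100.8 and 88.6 CPM to 186.2 and 191.0 CPM, a log2 fold change of 0.99 ± 0.06 (adjusted p = 1.52e-10). It was between 34.8 and 42.0 CPM in all 8 CHLA libraries and between 409.6 and 442.9 CPM in the 4 NB1691 libraries, with adjusted p-values of 0.876, 0.352 and 0.285 in CHLA15, CHLA20 and NB1691. FOSL1 in NB1691 fell from 39.6 and 40.4 CPM to 17.5 and 16.8 CPM, by 1.22 ± 0.08 on the log2 scale (adjusted p = 6.74e-10). In NB1643 it had 15 and 10 counts in controls and 3 and 5 counts with palbociclib (log2 fold change -1.48, adjusted p = 0.0172), and the call was lost without the first treated library (-0.94, adjusted p = 0.289), without the first control library (-1.42, adjusted p = 0.0806) and with only the NB1643 libraries in the fit (-1.46, adjusted p = 0.0866). In CHLA15 the counts were 22 and 13 in controls and 8 and 11 with the drug, and in CHLA20 13 and 12 against 6 and 10, which did not pass the test (adjusted p = 0.136 and 0.22). The fold change of FOSL1 was below 0 in 4 of 4 lines.

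Among the Jun subunits, JUNB rose from 24.2 and 23.8 CPM to 39.5 and 32.3 CPM in CHLA15 (0.58 ± 0.10, adjusted p = 0.000258), from 19.7 and 25.3 CPM to 36.6 and 39.5 CPM in CHLA20 (0.76 ± 0.10, adjusted p = 1.42e-05) and from 16.7 and 15.7 CPM to 24.7 and 22.2 CPM in NB1643 (0.53 ± 0.11, adjusted p = 0.000593). In NB1691 it was at 32.5 and 35.8 CPM in controls and 34.8 and 32.2 CPM with palbociclib. JUN rose in CHLA20, from 58.1 and 58.2 CPM to 71.8 and 76.8 CPM (0.35 ± 0.07, adjusted p = 0.000505). In NB1643 JUN was at 194.9 and 215.1 CPM in controls and at 221.5 and 232.3 CPM with palbociclib. These groups were separate, but the change did not pass the test (0.15 ± 0.07, edgeR adjusted p = 0.0856). Treated and control libraries overlapped between 61.1 and 72.3 CPM in CHLA15 and between 106.9 and 111.4 CPM in NB1691. JUND rose in CHLA20 from 90.2 and 110.4 CPM to 128.8 and 144.8 CPM (0.45 ± 0.11, adjusted p = 0.00447), a call lost without the second treated library (0.35, adjusted p = 0.0917) or the first control library (0.29, adjusted p = 0.0944). It rose in NB1691 from 94.8 and 100.6 CPM to 123.9 and 127.2 CPM (0.36 ± 0.11, adjusted p = 0.0175), and there the call was lost without any 1 of the 4 libraries (adjusted p from 0.0522 to 0.128) and when library totals replaced TMM (0.28, adjusted p = 0.0651).

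**Figure D3:**
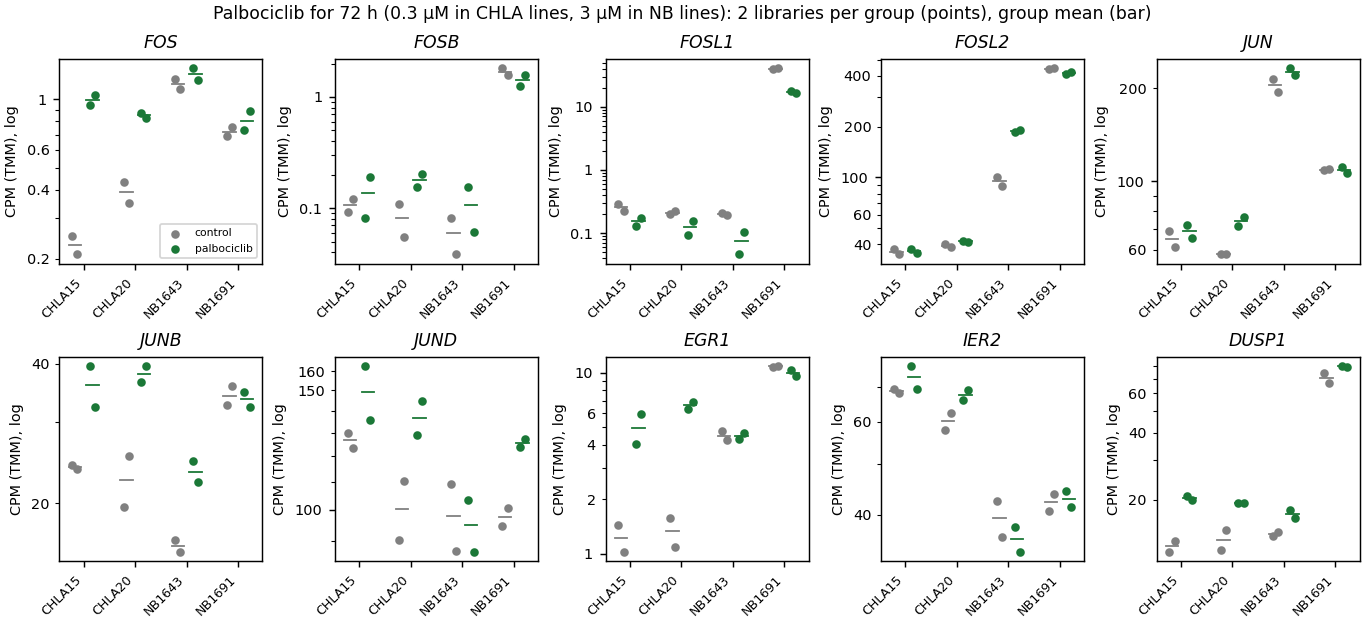
Level of each transcript (vertical axis, TMM-scaled CPM on a log scale) in 4 lines without a drug (grey) and after 72 h of palbociclib (green), with 1 point per library and a bar at the group mean. FOS and EGR1 rise in the CHLA lines, FOS overlaps between groups in both NB lines, FOSL2 separates in NB1643, and FOSL1 in NB1691 falls from 40.4 and 39.6 CPM to 17.5 and 16.8 CPM.

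The calls came to 4 of 10 members in CHLA15, all higher (29.8% of all genes called), 6 of 10 in CHLA20, all higher (29.6%), 3 higher and 1 lower in NB1643 (39.9%), and 1 higher and 1 lower in NB1691 (32.8%). The median log2 fold changes were 0.30, 0.51, 0.14 and -0.01, beside medians over all genes of 0.00, 0.00, 0.00 and 0.02. Whether the drug's effect differed between the 4 lines was tested by the interaction of line and treatment. It was called for 6 of 10 members (38.0% of all genes): FOSL2 (adjusted p = 2.2e-08), EGR1 (8.13e-08), FOS (0.000283), JUNB (0.00143), DUSP1 (0.00366) and JUN (0.0299). The call for JUN was lost when any 1 of 10 of the 16 libraries was left out, and the other 5 calls were kept whichever library was left out. Without the NB1691 libraries, a setting added after the data were seen, 3 of the 10 were called, namely FOSL2 (4.89e-06), EGR1 (3.31e-05) and FOS (0.00148), and JUNB (0.448), DUSP1 (0.0571) and JUN (0.117) were not. The lines with the rise in FOS and EGR1 received the lower dose, and line and dose cannot be told apart.

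**Figure D4:**
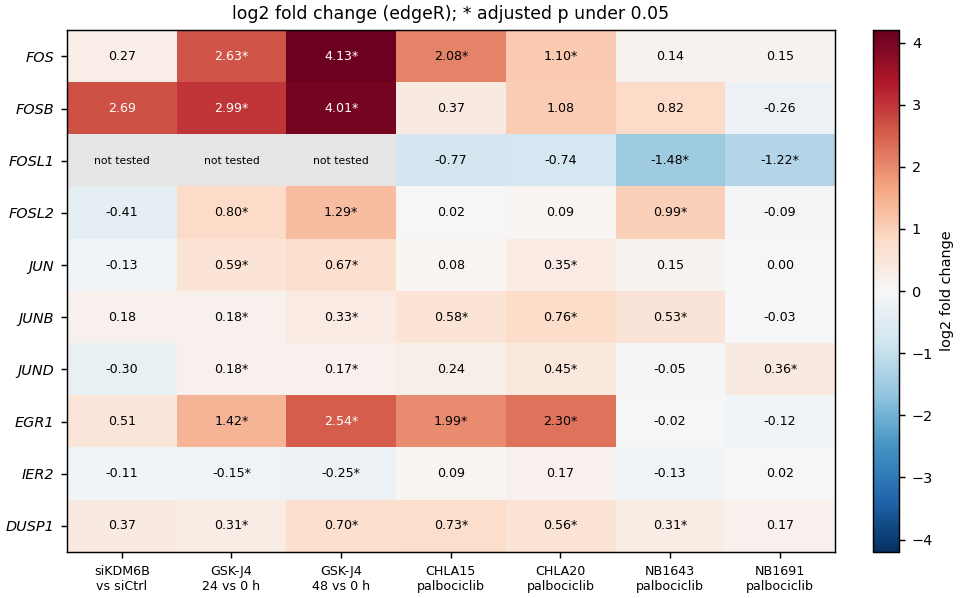
The log2 fold change of each member (rows) in 7 comparisons (columns), with red for higher, blue for lower and an asterisk for an edgeR adjusted p under 0.05; grey cells were not tested. FOS, FOSB and EGR1 hold the largest values under GSK-J4, and FOS and EGR1 in the CHLA lines under palbociclib.

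Without a drug, the lines differed in these genes, with 6 pairs of lines compared. NB1691 had the most FOSL1, with 39.6 and 40.4 CPM, whereas CHLA15 had 0.29 and 0.23 CPM, CHLA20 0.20 and 0.22 CPM and NB1643 0.20 and 0.19 CPM. The log2 difference was 7.24 from CHLA15 (adjusted p = 1.89e-19), 7.56 from CHLA20 (2.41e-19) and 7.64 from NB1643 (1.59e-19), while the other 3 lines did not differ from each other beyond their spread (adjusted p of 0.648, 0.356 and 0.905). FOSB was likewise highest in NB1691, with 1.81 and 1.56 CPM in NB1691 and at most 0.12 CPM in the controls of the other lines. DUSP1 was at 74.5 and 66.6 CPM in NB1691 and between 11.6 and 14.5 CPM in the others, a log2 difference of 2.34 to 2.52.

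FOSL2 rose in steps from CHLA15 (36.1 ± 1.8 CPM, SD, n = 2) and CHLA20 (39.3 ± 1.2 CPM), which did not differ in the test (adjusted p = 0.227), to NB1643 (94.7 ± 8.7 CPM) and NB1691 (440.8 ± 3.0 CPM). EGR1 had the same order, at 1.23 ± 0.29, 1.33 ± 0.35, 4.51 ± 0.36 and 10.9 ± 0.1 CPM. JUN was instead highest in NB1643 (205.0 ± 14.3 CPM), then NB1691 (109.2 ± 0.2 CPM), CHLA15 (65.1 ± 5.6 CPM) and CHLA20 (58.1 ± 0.1 CPM). FOS was highest in NB1643 too (1.17 ± 0.08 CPM), followed by NB1691 (0.72 ± 0.05 CPM), CHLA20 (0.39 ± 0.06 CPM) and CHLA15 (0.23 ± 0.03 CPM). Neighbours in these orders differed in the test, except for the CHLA15 and CHLA20 pair; for FOS, the step from CHLA20 to NB1691 (log2 difference 0.87, adjusted p = 0.00314) failed it with library totals in place of TMM (0.47, adjusted p = 0.087) and without the second CHLA20 control (0.67, adjusted p = 0.0507).

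JUNB was highest in NB1691 (34.1 ± 2.3 CPM) and lowest in NB1643 (16.2 ± 0.7 CPM), although with library totals NB1691 no longer differed in the test from CHLA15 (0.10, adjusted p = 0.349) or CHLA20 (0.21, adjusted p = 0.0702). IER2 was highest in CHLA15 (68.6 ± 0.9 CPM) and CHLA20 (60.1 ± 3.0 CPM). IER2 in NB1643 (39.4 ± 4.3 CPM) and NB1691 (42.2 ± 2.2 CPM) did not differ in the test (adjusted p = 0.247). JUND had the narrowest range, from 97.7 ± 4.1 CPM in NB1691 to 126.7 ± 4.7 CPM in CHLA15.

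Counting calls, CHLA20 and CHLA15 differed in 0 of 10 members (12.4% of all genes called), with JUND alone called by DESeq2, with upper quartiles, without the filter on low counts or without the second CHLA20 control. NB1643 differed from CHLA15 in 7 (64.6%) and from CHLA20 in 6 (64.5%). NB1691 differed from CHLA15 in 10 (78.0%), from CHLA20 in 9 (77.5%) and from NB1643 in 8 (80.7%). These shares of all genes leave little room for the members to stand out by count. For NB1691 the median member was 2.08 above CHLA15, 1.67 above CHLA20 and 1.17 above NB1643, beside 0.08, 0.10 and 0.13 over all genes. Library totals in place of TMM shifted the median over all genes by -0.403, -0.399 and -0.408 in the comparisons of NB1691 with CHLA15, CHLA20 and NB1643, so its smaller differences depend on the scaling.

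Levels of different genes were compared per kilobase of exon, using the union of annotated exons on GRCh37. In BE2C at 0 h JUND led with 14.4 CPM per kb, 36.4% of the summed level of the 7 AP-1 subunits, followed by JUNB with 10.7 CPM per kb (26.9%). FOS family members made up 16.6% ± 0.9 (SD, n = 2) of that sum at 0 h, 23.7% ± 0.5 at 24 h and 31.8% ± 0.3 at 48 h of GSK-J4, and the 3 groups were separate. By 48 h FOSL2, with 15.4 CPM per kb, was next to JUND, with 16.2 CPM per kb. FOS and FOSB, for all their fold changes, stayed minor in level.

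In untreated CHLA15 and CHLA20, JUND alone made up 64.4% and 60.3% of the summed subunit level and the Fos family 5.16% ± 0.05 and 6.72% ± 0.95. NB1643 was led by JUN (56.6 CPM per kb, 43.6%) with JUND close behind (50.8 CPM per kb, 39.0%). NB1691 was led by FOSL2 (61.6 CPM per kb, 33.7%), and its Fos family came to 45.6% ± 0.6. With palbociclib the Fos family share was 17.7% ± 1.3 in NB1643, against 10.6% ± 0.2 in its controls, and 37.3% ± 0.5 in NB1691. In CHLA15 and CHLA20 with the drug it was 4.57% ± 0.41 and 5.24% ± 0.39, below their controls. FOS, which rose in both CHLA lines, made up 0.26% and 0.23% of the summed level there. JUND ranked highest in 9 of the 13 groups, and in 8 when the length of the longest annotated transcript was used.

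**Figure D5:**
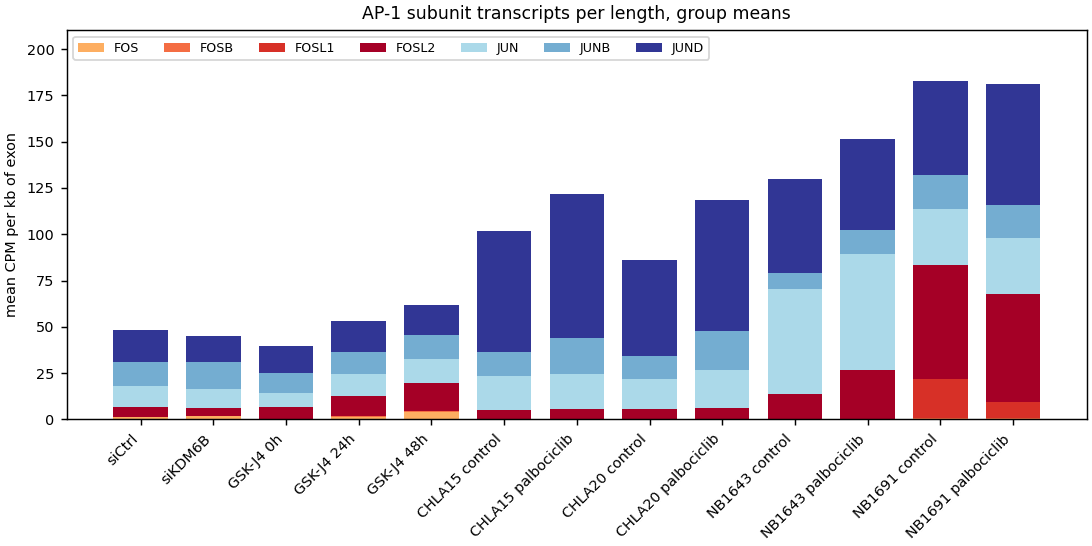
Mean level of the 7 AP-1 subunits per kilobase of exon (vertical axis, CPM per kb, stacked from 0) in the 13 groups (horizontal axis), with Fos subunits in red and orange and Jun subunits in blue. The Fos family widens with hours of GSK-J4 in BE2C, JUND fills most of the bar in the CHLA lines, and FOSL2 and FOSL1 are prominent in NB1691.

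The partners and regulators of the family were read from 6 further lists. Of 15 tested AP-1 partners, other leucine-zipper proteins that pair with Fos or Jun, 10 rose and none fell at 24 h of GSK-J4, and 12 rose and 1 fell at 48 h (medians 0.46 and 0.64, beside 0.01 and 0.05 over all genes). That is 66.7% and 86.7% of the list called in either direction, where 55.3% and 71.5% of all genes were. ATF3, a stress-induced factor, rose by 1.77 ± 0.06 at 48 h (adjusted p = 2.7e-29), and NRL fell by 1.68 (adjusted p = 8.14e-08). Of 41 other immediate early genes tested, 17 rose and 10 fell at 24 h and 26 rose and 8 fell at 48 h, or 65.9% and 82.9% called. ZFP36, which destabilises short-lived mRNAs, rose by 2.35 ± 0.22 at 48 h (adjusted p = 3.92e-13), GADD45B by 2.18 ± 0.13 (adjusted p = 1.71e-19) and KLF10 by 2.10 ± 0.04 (adjusted p = 1.37e-38), and TRIB1 fell by 0.87 ± 0.07 (adjusted p = 5.18e-16).

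MAPK phosphatases and Sprouty or Spred feedback inhibitors rose in 6 of 16 and fell in 2 at 24 h, and rose in 11 and fell in 2 at 48 h of GSK-J4. The called shares, 50.0% and 81.2%, lay to either side of the 55.3% and 71.5% of all genes. DUSP5, a nuclear ERK phosphatase, rose by 2.66 ± 0.15 at 48 h (adjusted p = 5.17e-21). Of 25 upstream MAPK kinases, 6 rose and 11 fell at 48 h, a called share of 68.0% that was below that of all genes, with RPS6KA5, the kinase MSK1, at 1.94 ± 0.08 (adjusted p = 4.3e-25) and MAP2K6 lower by 1.46 (log2 fold change -1.46, adjusted p = 7.24e-22). The 8 SRF and ETS-partner regulators and EGR corepressors had 3 higher and 3 lower, near the share of all genes, including ELK4 at 0.57 (adjusted p = 2.07e-13) and the EGR corepressor NAB2 at 0.51 (adjusted p = 1.34e-10). Of 11 tested AP-1 target genes, 4 rose and 5 fell at 24 h (81.8% called), with a median of -0.20 beside 0.01 over all genes. At 48 h 6 rose and 4 fell (90.9%), with a median of 0.35 beside 0.05. HMOX1, heme oxygenase, rose by 4.11 ± 0.11 (adjusted p = 1.32e-33) and VEGFA by 3.42 ± 0.03 (adjusted p = 4.68e-50), whereas CD44 (-1.10, adjusted p = 2.71e-08) and DCN (-2.17, adjusted p = 2.37e-18) fell. None of the genes of the 6 lists was called for the siRNA libraries by edgeR.

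Under palbociclib, 12 of 17 genes of the feedback list rose and 1 fell in both CHLA15 and CHLA20 (medians 0.64 and 0.51), compared with 6 higher and 2 lower in NB1643 and 8 higher and 1 lower in NB1691 (medians 0.05 and 0.03). The list's called share was 76.5% in each of the CHLA lines, 47.1% in NB1643 and 52.9% in NB1691, beside 29.8%, 29.6%, 39.9% and 32.8% of all genes. SPRY1, a Sprouty inhibitor of receptor tyrosine kinase signalling, rose by 1.56 ± 0.09 in CHLA15 (adjusted p = 5.7e-10) and by 1.20 ± 0.09 in CHLA20 (adjusted p = 1.09e-08), and DUSP6, the cytoplasmic ERK phosphatase, by 1.22 ± 0.06 in CHLA15 (adjusted p = 4.61e-11) and 0.86 ± 0.06 in NB1643 (adjusted p = 2.06e-09). ATF3 fell by 1.62 in CHLA15 and 2.20 in CHLA20 (adjusted p = 1.18e-07 and 1.13e-09), and by 0.58 in NB1643 (adjusted p = 0.000793), and rose by 0.39 in NB1691 (adjusted p = 0.0145). AP-1 partners had 3 higher and 5 lower of 16 in CHLA15, 3 and 4 in CHLA20, 2 and 7 in NB1643 and 4 and 1 in NB1691. Their called shares were 50.0%, 43.8%, 56.2% and 31.2% in that order, of which that in NB1691 was near the share of all genes.

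Other immediate early genes had between 11 and 15 of 48 higher and between 8 and 14 lower in the 4 lines. PLK2 rose by 1.33 ± 0.06 in CHLA15 and ZFP36L1, which binds AU-rich mRNA elements, fell by 1.56 (adjusted p = 7.02e-11 and 9.55e-11). CCND1, the D-type cyclin and an AP-1 target, was higher in each of the 4 lines, with log2 fold changes of 1.01 in CHLA15, 0.93 in CHLA20, 0.80 in NB1643 and 0.89 in NB1691 (adjusted p from 8.63e-11 to 2.65e-10). PLAUR, the urokinase receptor, fell by 2.56 in NB1643 (adjusted p = 3.06e-07). Upstream MAPK kinases had 4 to 7 of 25 higher and 2 to 6 lower, and ELK3 fell in all 4 lines, by between 0.19 and 0.70. AP-1 target genes had between 2 and 6 of 17 higher and between 4 and 6 lower. The called shares over the lines ran from 43.8% to 58.3% for other immediate early genes, from 24.0% to 52.0% for the kinases and from 47.1% to 70.6% for the targets, beside 29.6% to 39.9% of all genes.

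Between untreated lines, 15 of 17 AP-1 target genes were higher and 2 lower in NB1691 than in CHLA15, with a median log2 difference of 4.97, beside 0.08 over all genes. Since 78.0% of all genes were called in this comparison, high counts are no mark of these lists. Other immediate early genes had 37 of 48 higher and 9 lower (median 1.38), among them GADD45B at 8.22 (adjusted p = 4.8e-20). The feedback list went the other way, with 5 of 17 higher and 11 lower (median -0.88), including DUSP6 at -3.63 (adjusted p = 1.38e-19) and SPRY1 at -2.08 (adjusted p = 4.35e-12). The mesenchymal markers given above differed between the same libraries, and their part in these differences was not tested.

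The genes whose log2 levels ran most alike to FOS over the 11 BE2C libraries were RP11-196G18.22 (Pearson r = 0.95), HMOX1 (0.945) and ZNF93 (0.944), and for EGR1 they were ABCB6 (0.979), RSRP1 (0.974) and ABTB1 (0.97). JUN ran most like BST2 (0.991), RPL23AP74 (0.974) and RP11-22B23.1 (0.973). Over the 16 palbociclib libraries FOS ran most like ITGA1 (0.925), PTGER3 (0.918) and AAK1 (0.909), EGR1 like UXS1 (0.946), THSD4 (0.935) and PLPP4 (0.927), JUN like CYP2E1 (0.988), ST13 (0.988) and RP11-359B12.2 (0.987), and FOSL1 like ATP23, ITGB3 and PLEKHA5 (0.996 each). Among the members themselves, FOS and EGR1 correlated at 0.785 over the BE2C and 0.706 over the palbociclib libraries. These points share lines, treatments and experiments, so the values describe the order of these libraries only.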

How the data were processed

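RNA-seq of 5 neuroblastoma lines was deposited as raw read counts per gene symbol, made by the authors, whose processing notes name STAR 2.5.3a, HTSeq and GRCh37. The extraction label speaks of xenograft tissue, whereas the growth and treatment labels describe cultured cells. Whether counting used strand was not given in the sources used here. Of the 10 genes, 5 (FOSB, FOSL2, JUNB, IER2 and DUSP1) overlap a gene on the other strand. How reads over such overlaps were assigned, or whether they were left out as ambiguous, is therefore not known. HTSeq's summary lines, which name no gene, held 16.0% to 30.0% of each library and were left out.

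BE2C libraries were the sum of 2 files each. The files of a library differed by a chi-square per degree of freedom of 1.48 to 1.65, against 1.93 to 4.04 between replicates. Separate edgeR 4.0.16 quasi-likelihood fits (R 4.3.3, TMM, filterByExpr, Benjamini-Hochberg adjustment over all genes tested, threshold 0.05) were made for the siRNA (17472 genes), GSK-J4 (17734) and palbociclib (22133) libraries. Standard errors are the log2 fold change divided by the square root of F. The 3 siKDM6B libraries formed 1 group. CPM are counts divided by the TMM-scaled library size; 95% intervals come from the same standard errors, and the floor of 3 counts covers counting error only.

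In data simulated from these means, estimated fold changes tracked the true ones in each fit and most changed genes were called, except at the spread of the siRNA libraries, where few were. Alternatives were limma-voom (limma 3.58.1), DESeq2 1.42.0, upper quartiles, library totals, no filter, an absolute log2 fold change over 0.5, other sets of libraries, each file as a sample, a replicate block and each library left out. Outside the 10 genes and KDM6B, named genes were the 3 highest and 3 lowest log2 fold changes of each list among genes called with a mean of at least 1 CPM, of which a selection is given and some are not reported here. Log2 CPM used a prior count of 2. The members and lists were chosen with earlier results of these data known. The older symbol IL8 was not used here, as it had no row.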

Additional observations from a re-analysis of the deposited data

Results flagged for a closer look

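For 6 of the 10 members, the change with palbociclib differed between CHLA15, CHLA20, NB1643 and NB1691 in edgeR's test of the line by treatment interaction (38.0% of all genes did). The adjusted p was 2.2e-08 for FOSL2, whose log2 fold change was 0.99 in NB1643 and 0.02, 0.09 and -0.09 in CHLA15, CHLA20 and NB1691. It was 8.13e-08 for EGR1 and 0.000283 for FOS, which rose in CHLA15 and CHLA20 and in neither NB line. It was 0.00143 for JUNB and 0.00366 for DUSP1, which rose in CHLA15, CHLA20 and NB1643, and 0.0299 for JUN, which rose in CHLA20 and whose call was lost when any 1 of 10 of the 16 libraries was left out. The CHLA lines received 0.3 μM and the NB lines 3 μM palbociclib, and line and dose cannot be told apart. Without the NB1691 libraries, an alternative chosen after seeing the data, FOSL2, EGR1 and FOS still passed the test and JUNB, DUSP1 and JUN did not.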

How the results depend on the processing

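Of 1034 recomputed log2 fold changes of members called in the main comparisons, or of FOS, FOSB and EGR1 for siKDM6B, 967 kept their direction and their side of the threshold, 65 fell below it, 1 rose past it and 1 reversed. Counting members not called at first too, 36 calls were gained, in 16 pairs of a member and a comparison. They included JUN at 48 h against 24 h of GSK-J4 (4 settings) and with palbociclib in NB1643 (4), and JUND in CHLA15 (3) and in the interaction (6). The reversal was FOS in the siRNA comparison, which ranged from -0.12 to 0.522 when each library was left out in turn; the cause was not tested. Which siKDM6B members were called depended on taking each file as a sample (1 member, FOSB, and 2354 genes, since the number of samples rises). For all genes, 0 calls became 157 with DESeq2, 84 without the filter on low counts and 690 with the GSK-J4 libraries in the fit.

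With an absolute log2 fold change over 0.5 required as well, 5 of 9 members remained called at 24 h of GSK-J4, 3 at 48 h against 24 h and 1 of 10 in NB1691, and gene counts were 3855, 7487 and 3111 for the 3 GSK-J4 comparisons (9802, 12678 and 9551 without it), 2600, 2659, 4292 and 3033 for palbociclib in CHLA15, CHLA20, NB1643 and NB1691 (6598, 6544, 8841 and 7269), and 916 for CHLA20 against CHLA15 (2736). Fitting the siRNA and GSK-J4 libraries together, which adds the wider spread of the siRNA libraries, left 1, 4 and 0 members and 375, 3412 and 39 genes. With only the compared groups in the fit, 4 members were called in NB1691 (FOSL1, JUND, DUSP1 and FOSL2), and 1285 genes between CHLA20 and CHLA15. Leaving out each library in turn gave 2 to 5 members in NB1643, 1 in NB1691 whichever library was left out, 5 to 8 for the interaction, and 0 to 1 between CHLA20 and CHLA15, where genes ranged from 1130 to 4012. In that pair 1 member, JUND, was also called with DESeq2, with upper quartiles and without the filter. With upper quartiles the median over all genes shifted by 0.109 at 48 h of GSK-J4 and by -0.114, -0.109 and -0.181 for untreated NB1691 against CHLA15, CHLA20 and NB1643. Of the genes called, 52.9% were higher with palbociclib in NB1691 and 35.9% with library totals; for untreated NB1691 against those lines the shares were 54.2%, 54.7% and 55.3%, and 40.6%, 40.9% and 42.4% with library totals. At 48 h against 24 h of GSK-J4, 48.1% were higher, and 58.1% with upper quartiles. The interaction of line and treatment had 3 members and 4650 genes without the NB1691 libraries (6 and 8403 with them), a setting added after the data were seen.

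At 24 h of GSK-J4 the call for JUNB was also lost with DESeq2 (adjusted p = 0.114) and that for IER2 with upper quartiles (adjusted p = 0.101). JUND led the AP-1 subunits per length in 9 of 13 groups, and in 8 with the longest transcript.

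With the replicate number as a block, gene counts were 9939, 12727 and 9658 for GSK-J4, 6717, 6681, 8956 and 7450 for palbociclib and 8519 for the interaction, and 5, 5 and 7 members were called in CHLA15, NB1643 and the interaction in place of 4, 4 and 6, with the same counts elsewhere. Same-numbered libraries did not deviate together (correlations -0.0628 to 0.0483). Counting noise in such alike replicates also lowers these correlations, so they do not decide whether such libraries shared a culture or preparation. The siRNA and untreated comparisons had no block, since the siKDM6B libraries carry no shared numbers and lines are not paired. Low counts limit FOSL1 outside NB1691, and FOSB at 0 h of GSK-J4 and in 3 of the palbociclib lines.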
